A study of Rattus norvegicus with 6 samples.

Results

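The genes described here are the keratins of simple, single-layered epithelium, Krt8, Krt18, Krt19, Krt20 and Krt7, chosen by name as 5 of the 17388 genes counted in rat colon nuclei. Keratins are intermediate filament proteins that build a cytoskeletal network in epithelial cells and tie it to the desmosomes between neighbouring cells. A filament needs a type II keratin, such as Krt8 or Krt7, joined to a type I keratin, such as Krt18, Krt19 or Krt20. In the colon, Krt8, Krt18 and Krt19 are found along the crypt, Krt20 is known as a marker of differentiated cells of the surface and the upper crypt, and mice without Krt8 develop colitis.

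Nuclei came from flash-frozen colon of male wildtype Wistar rats in 3 treatment groups. Rats of the placebo and PL8177 groups were given 5% dextran sulfate sodium (DSS) in drinking water for 3 days, which damages the lining of the colon, followed by 4 days of capsules 2 times a day. The capsules held no drug in placebo rats and 50 µg of PL8177, an agonist of the melanocortin 1 receptor, in PL8177 rats, and sham rats had water only. Molecules were counted by their unique molecular identifiers (UMIs) in the nuclei that the study assigned to enterocytes and to T cells. Each treatment held 3 tags at the start of its nucleus names, as many as its rats; the labels do not list these tags, so values per rat rest on taking 1 tag as 1 rat. The sham tags were GR12, GR13 and GR15, the placebo tags GR22, GR23 and GR24, and the PL8177 tags GR41, GR43 and GR44.

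The enterocyte tables held 8782 nuclei and 319125 to 4123319 UMIs per tag, and the median UMI count per nucleus ran from 437 in GR13 to 2331 in GR12. The T cell tables held 1018 nuclei and 8070 to 779009 UMIs per tag. Markers of enterocytes other than keratins made up 165 to 357 of 10000 UMIs in enterocyte nuclei and T cell markers 0.143 to 0.846. The T cell nuclei of placebo tag GR23 went against their label, with 2.05 T cell marker UMIs and 209 enterocyte marker UMIs per 10000, where the other tags had 24.5 to 57.5 and 26.6 to 90.9. GR23 supplied 685 of the 1018 T cell nuclei, so T cell values are given with and without it. Of all 9800 nuclei, 10 barcodes occurred under more than 1 tag, and none occurred in both cell types of 1 tag.

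In rat, Krt8 and Krt18 are neighbours on chromosome 7, where Krt7 also lies, while Krt19 and Krt20 lie among the type I keratins of chromosome 10. The promoter windows of Krt8 and Krt20, whose levels carry the results, and of Krt18, the neighbour of Krt8, are shown from RefSeq on build GRCr8, which is not the build of the counts (Rnor 6.0). Each runs from 250 bases before to 50 after the annotated start, 5′ to 3′ on the strand of the gene, at chr7:135010290-135010589 on the minus strand for Krt8, chr7:135035918-135036217 on the plus strand for Krt18 and chr10:84890236-84890535 on the minus strand for Krt20. Capitals mark matches to TATAAA (the TATA box), GGGCGG (the GC box) or TGANTCA (the AP-1 motif), searched on both strands.
Krt8: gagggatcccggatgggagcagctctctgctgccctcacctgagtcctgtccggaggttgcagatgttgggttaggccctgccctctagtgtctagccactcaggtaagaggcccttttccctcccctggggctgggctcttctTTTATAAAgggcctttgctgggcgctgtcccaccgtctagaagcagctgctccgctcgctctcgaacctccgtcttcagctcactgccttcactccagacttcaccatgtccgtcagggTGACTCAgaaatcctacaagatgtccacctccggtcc
Krt18: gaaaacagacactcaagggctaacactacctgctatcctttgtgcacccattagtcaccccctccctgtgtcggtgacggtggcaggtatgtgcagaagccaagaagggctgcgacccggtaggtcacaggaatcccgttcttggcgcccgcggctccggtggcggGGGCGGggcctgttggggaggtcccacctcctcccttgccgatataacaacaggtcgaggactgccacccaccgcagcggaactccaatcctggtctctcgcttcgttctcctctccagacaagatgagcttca
Krt20: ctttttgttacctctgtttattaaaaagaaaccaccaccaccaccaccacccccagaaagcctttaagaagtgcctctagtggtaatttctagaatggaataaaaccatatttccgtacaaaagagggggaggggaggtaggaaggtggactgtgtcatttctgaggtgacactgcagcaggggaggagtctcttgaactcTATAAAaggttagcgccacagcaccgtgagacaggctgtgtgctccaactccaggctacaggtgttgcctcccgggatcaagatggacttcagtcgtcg
The Krt8 window held TATAAA at -104 from the start, overlapping a match on the opposite strand at -106, and TGACTCA at position 14 counted from it. The annotated start of Krt8 in this table is the first base of its start codon, so the TGACTCA match lies in coding sequence and not upstream of the gene. The Krt18 window held GGGCGG at -84, and the Krt20 window held TATAAA at -49. Of 33469 rat promoter windows of this length, 14.2% held TATAAA, 33.1% GGGCGG and 7.33% TGANTCA, and the matches are given as a description.

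The depth behind the 5 genes differed widely. Over all enterocyte nuclei, 27134 UMIs were counted for Krt20, 8607 for Krt8, 420 for Krt19, 148 for Krt18 and 9 for Krt7. These sums were not divided by gene length and are not compared as expression. Krt8 and Krt18 also have processed copies, and the RefSeq table lists 1 Krt8 and 6 Krt18 pseudogenes that the count tables do not hold, so reads shared with such copies make their counts uncertain. Of 8782 enterocyte nuclei, 5801 had a UMI of Krt20 (66.1%, exact 95% binomial interval 65.1% to 67.0%), 3335 one of Krt8 (38.0%, 37.0% to 39.0%), 386 one of Krt19 (4.40%, 3.98% to 4.85%) and 138 one of Krt18 (1.57%, 1.32% to 1.85%). These and all later intervals cover counting error only. The highest count in a single nucleus was 87 for Krt20, 62 for Krt8, 4 for Krt19, 2 for Krt18 and 1 for Krt7.

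In nuclei assigned to enterocytes, Krt20 was higher in every sham and every PL8177 tag than in every placebo tag. The difference was not called once all genes were tested. Among the sham tags, Krt20 was at 14.5 UMIs per 10000 in GR12, 81.3 in GR13 and 23.3 in GR15. Among the placebo tags it was at 11.6, 12.9 and 10.6 in GR22, GR23 and GR24, and among the PL8177 tags at 15.7, 13.6 and 31.7 in GR41, GR43 and GR44. The placebo tags lay close together, whereas GR13 stood far above the other sham tags and GR44 above the other PL8177 tags. The means were 39.7 ± 36.3 in sham, 11.7 ± 1.15 in placebo and 20.3 ± 9.90 in PL8177 (SD, n = 3 each). The exact two-sided permutation test gave p = 0.1 for sham and p = 0.1 for PL8177 against placebo, the smallest value that 3 tags against 3 allow, and 0.75 after adjustment over 15 tests of the keratins. PL8177 and sham tags overlapped. Both comparisons with placebo use the same 3 placebo tags. These levels leave out the 685 T cell nuclei of GR23, which carried enterocyte markers and held Krt20 at 19.9 UMIs per 10000. That value lies above sham tag GR12 and PL8177 tags GR41 and GR43. Whether the groups would still separate with these nuclei counted in was not tested.

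T cell markers in the same enterocyte nuclei also separated PL8177 from placebo, at 0.143 to 0.359 against 0.392 to 0.846 UMIs per 10000 (12 of 13 markers with UMIs, Cd5 at 0), while sham, at 0.267 to 0.515, overlapped both. Mesothelium markers (4 of 4 with UMIs) were at 0 to 0.0056 in PL8177 and 0.0057 to 0.094 in placebo. Every PL8177 tag and placebo tag GR24 held fewer than 3 of these UMIs, so no order between the groups is read. Enteroendocrine markers (4 of 4 with UMIs) were at 0.066 to 0.16 in sham and 0.045 to 0.063 in placebo. The highest placebo value, in GR23, rested on fewer than 3 UMIs, so no order is read from it. The part of these other cell types in the Krt20 levels was not tested, apart from T cells. In fits without the nuclei that held a T cell marker UMI, the log2 fold change of Krt20 in edgeR was 0.999 for PL8177 (adjusted p = 0.616) and 1.99 for sham (adjusted p = 0.224) over placebo.

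**Figure D1:**
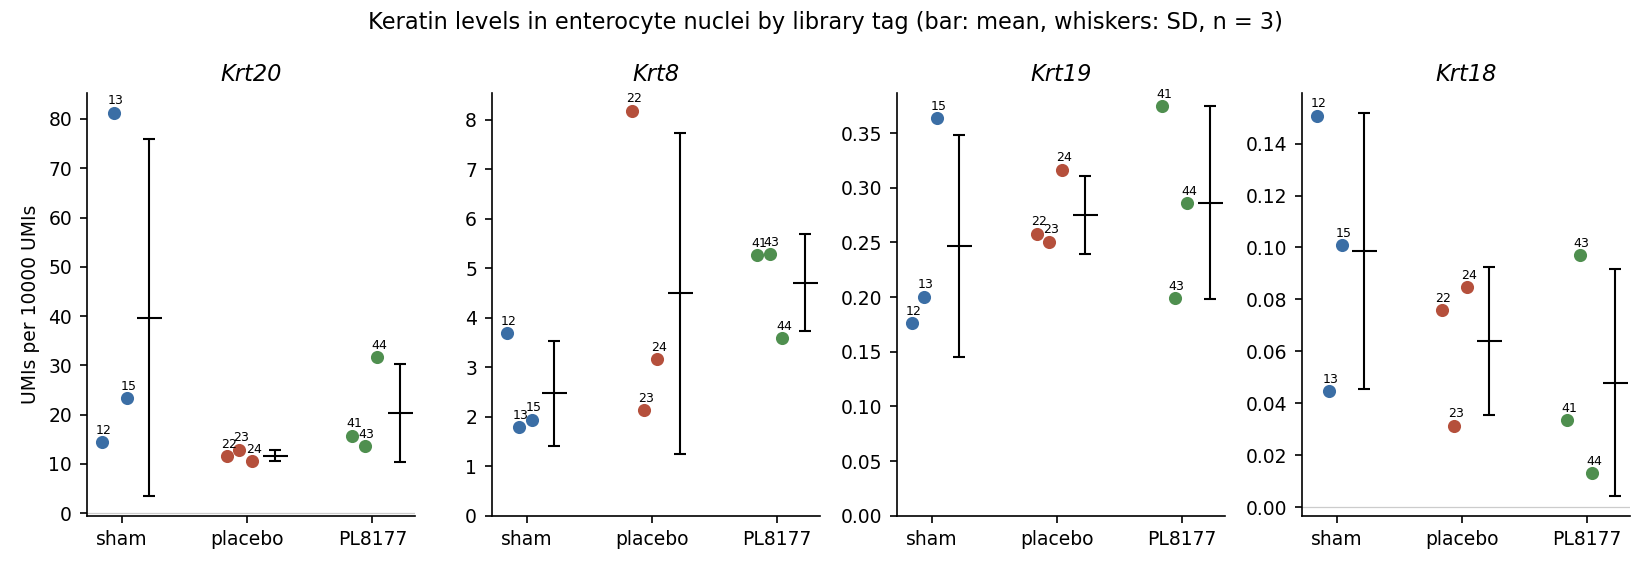
Each panel plots the UMIs per 10000 enterocyte UMIs of a keratin on a linear axis, 1 point per library tag (numbered by its last digits) in sham, placebo and PL8177, with a bar for the mean and whiskers for the SD over 3 tags; Krt7, with 9 UMIs in all, is not drawn. The placebo tags of Krt20 lie between 10.6 and 12.9, below all sham and PL8177 tags, while the groups overlap for Krt8, Krt19 and Krt18. The T cell nuclei of GR23, which carried enterocyte markers, are not included.

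In edgeR's quasi-likelihood test on UMI sums per tag, Krt20 had a fitted log2 fold change over placebo of 1.99 in sham (SE 0.58, adjusted p = 0.222) and of 0.99 in PL8177 (SE 0.57, adjusted p = 0.636). For PL8177 against sham the fitted change was -1.0 (SE 0.57, adjusted p = 0.772), which turned to 0.21 without GR13 and was -1.51 without GR44. A call needed an adjusted p under 0.05 with a log2 fold change past 0.5 in either direction. By this rule edgeR called 0 of 9424 genes (0.0%) in each of the 3 comparisons, and so 0 of the 4 keratins tested, since Krt7 was too low to be tested. DESeq2 called 115, 70 and 4 genes for sham against placebo, PL8177 against placebo and PL8177 against sham, and none of them was a keratin. When low genes were kept in, edgeR called Krt20 in sham against placebo (log2 fold change 1.91, SE 0.41, adjusted p = 0.0261). Without GR13 the fitted change for sham fell to 0.79 (SE 0.38, adjusted p = 0.635), and without GR44 that for PL8177 fell to 0.47 (SE 0.55, adjusted p = 0.857). The study lists Krt20 among the enterocyte genes it chose from these nuclei, so its direction here is not independent evidence.

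Such a separation of tags in enterocyte nuclei was shared by many genes. Of the 4 keratins with at least 50 UMIs, 1 (Krt20) had sham and placebo tags that did not overlap, where 19.6% of 9989 such genes had this in either direction. Against placebo, 1 of 4 (again Krt20) did not overlap for PL8177, where the share of all genes was 18.6%. For PL8177 against sham it was 0 of 4, beside 11.8% of all genes. At an unadjusted p below 0.05 in edgeR, 1 of 4 (Krt20) differed between sham and placebo, beside 12.4% of all genes (1172). Between PL8177 and placebo it was 0 of 4, beside 9.24% (871), and between PL8177 and sham 1 of 4 (Krt8), beside 6.59% (621).

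The share of nuclei with a Krt20 UMI followed the levels less closely. It was 81.6%, 87.9% and 61.0% in the sham tags, 62.7%, 46.7% and 48.0% in the placebo tags and 62.1%, 66.6% and 76.2% in the PL8177 tags, in the order of tags given above. These shares overlapped between placebo and either other group, through the high share of GR22, a deep tag. Each nucleus was then thinned to 300 UMIs, which left out 3 to 149 shallower nuclei per sham tag, 18 to 51 per placebo tag and 66 to 74 per PL8177 tag. The thinned shares of the sham tags were 31.6%, 81.7% and 46.1%, those of the placebo tags 23.0%, 25.2% and 20.8%, and those of the PL8177 tags 28.3%, 27.3% and 54.2%, so that both other groups lay above every placebo tag. The thinned Krt20 level itself was 11.1 to 34.5 per 10000 in PL8177 and 9.20 to 13.1 in placebo, which overlapped (exact permutation test, p = 0.3), while sham, at 15.9 to 92.1, stayed above placebo (p = 0.1). In nuclei with 500 to 1500 UMIs, an alternative chosen after seeing the data, Krt20 was at 16.8 to 78.2 in sham, 6.61 to 14.7 in placebo and 8.59 to 33.7 in PL8177, again with an overlap of PL8177 and placebo (exact permutation test, p = 0.7). The log2 ratio of the PL8177 to the placebo mean was 0.86 after thinning and 0.75 in nuclei with 500 to 1500 UMIs. Over all nuclei it was 0.79.

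How evenly Krt20 UMIs were spread over nuclei differed between tags. The 10% of enterocyte nuclei with the most Krt20 UMIs held 32.0% of them in GR13, the lowest share of the 9 tags, and 56.6% in GR23, the highest.

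Krt8, the type II keratin that pairs with Krt18 and Krt20, differed between tags of 1 treatment as much as between treatments. It was at 3.69, 1.78 and 1.94 UMIs per 10000 in the sham tags GR12, GR13 and GR15. In the placebo tags GR22, GR23 and GR24 it was at 8.18, 2.13 and 3.16, and in the PL8177 tags GR41, GR43 and GR44 at 5.26, 5.28 and 3.59. GR22 was the highest of all 9 tags and GR23 among the lowest, so the placebo tags overlapped both other groups. The lowest PL8177 tag lay just under the highest sham tag. The means were 2.47 ± 1.06 in sham, 4.49 ± 3.24 in placebo and 4.71 ± 0.97 in PL8177 (SD, n = 3 each), and the exact two-sided permutation tests gave p = 0.5, p = 0.9 and p = 0.2 for sham and PL8177 against placebo and PL8177 against sham.

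In edgeR, Krt8 had a log2 fold change of -0.73 (SE 0.43, adjusted p = 0.489) for sham against placebo, 0.20 (SE 0.42, adjusted p = 0.922) for PL8177 against placebo and 0.93 (SE 0.43, adjusted p = 0.747) for PL8177 against sham. Without GR22 the first became 0.035 (adjusted p = 0.985) and the second 0.97 (adjusted p = 0.330). The second also changed sign without GR23 (-0.15) and without GR24 (-0.015), so its direction depended on which placebo tags were used. The third kept its direction with each tag left out, between 0.76 and 1.31, with adjusted p between 0.283 and 1.00. In nuclei with 500 to 1500 UMIs, every PL8177 tag was above every sham tag for Krt8, at 3.28 to 4.22 against 1.46 to 2.67 per 10000 (exact permutation test, p = 0.1, adjusted 0.5). With nuclei thinned to 300 UMIs these groups overlapped, at 2.85 to 4.98 in PL8177 and 1.52 to 3.06 in sham (exact permutation test, p = 0.2).

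**Figure D2:**
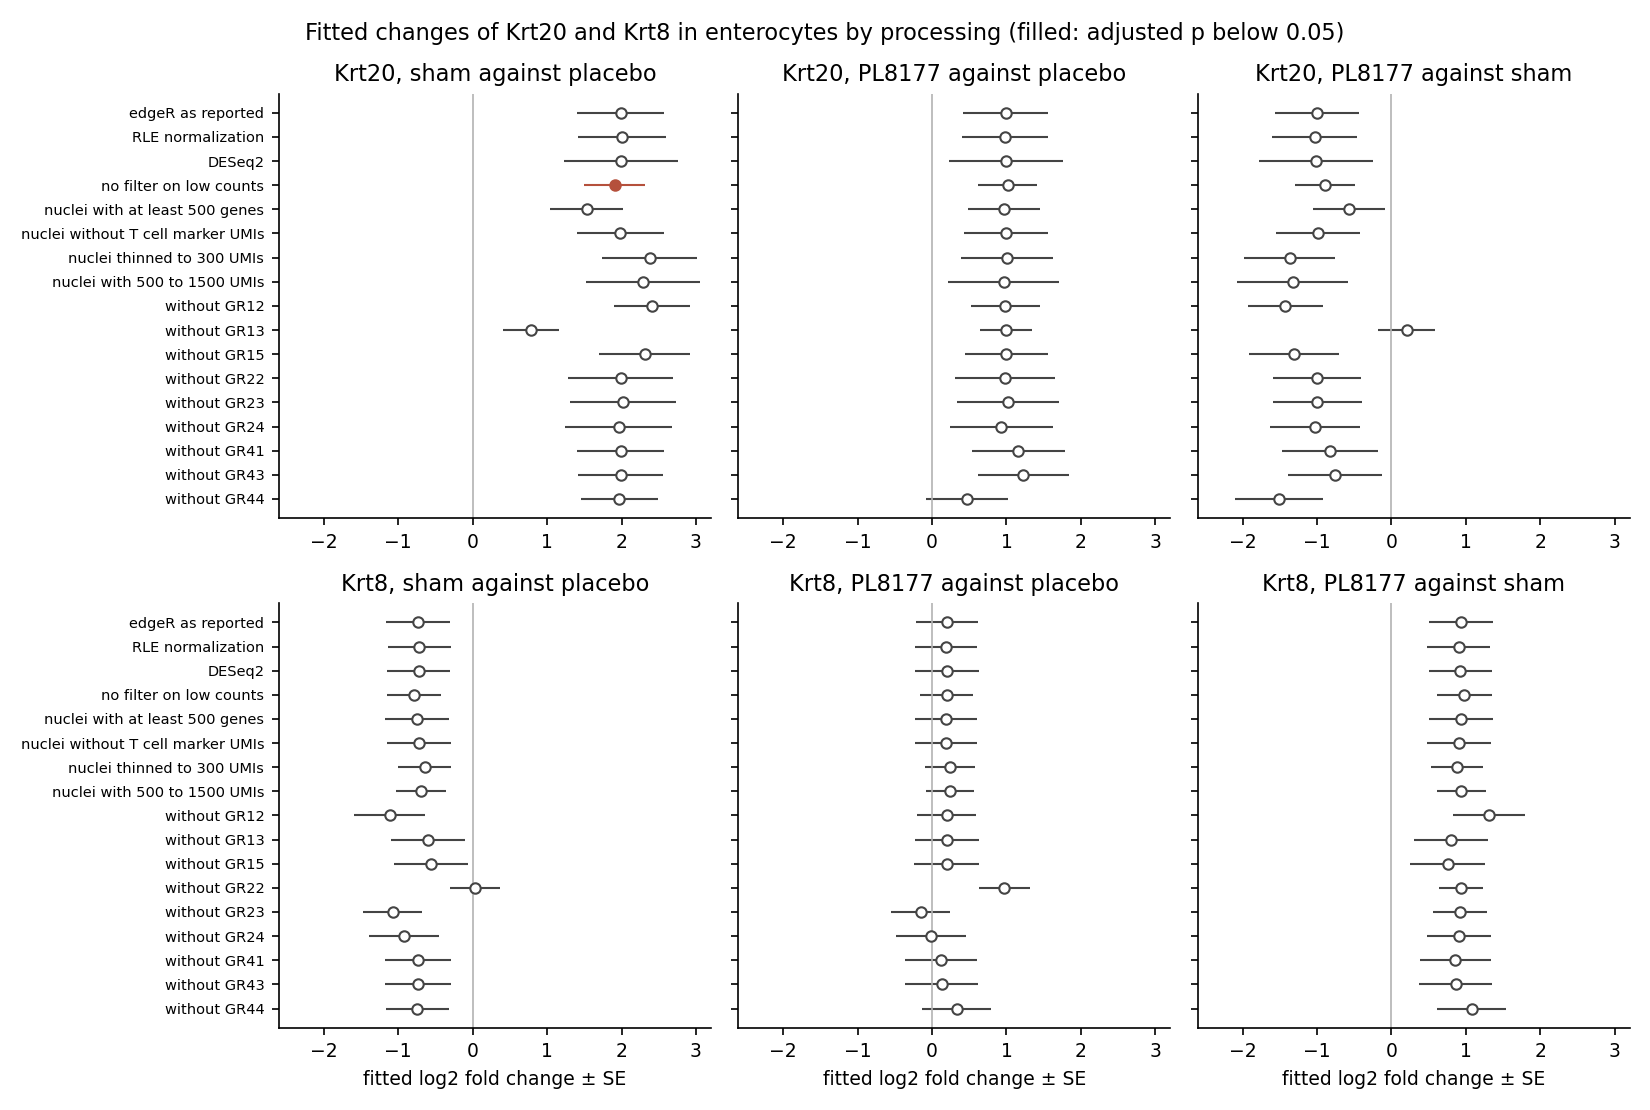
Each point is the fitted log2 fold change of Krt20 (top) or Krt8 (bottom) in enterocytes with its SE as a bar, for 3 comparisons (columns) and for the fit as reported, 7 other ways of processing and 9 fits that each leave out 1 tag (from top to bottom), with the call at an adjusted p below 0.05 as a filled point. Krt20 for sham against placebo is called only without a filter on low counts, and it falls from 1.99 to 0.79 without GR13; Krt8 for sham against placebo moves from -0.73 to 0.035 without GR22.

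Krt8 moved with the depth of the nuclei. Over the 9 tags, its log2 level and the log2 median UMI count per nucleus had a Pearson r of 0.85 and a Spearman rho of 0.88, and r was 0.95 without the 2 tags of most extreme depth. For Krt20 the same values were -0.65, -0.52 and -0.51. Each tag is taken as 1 library, and level and depth come from the same counts, so these are descriptions. Nuclei with a Krt8 UMI made up 49.0%, 8.71% and 10.5% of the sham tags, 61.3%, 17.8% and 27.9% of the placebo tags and 45.8%, 53.2% and 25.9% of the PL8177 tags. Thinned to 300 UMIs per nucleus, these shares were 8.86%, 4.28% and 5.26% for sham, 15.7%, 7.04% and 7.16% for placebo and 13.2%, 12.8% and 7.99% for PL8177. The spread between tags was narrower after thinning, and the deep tags GR12, GR22, GR41 and GR43 still had the highest shares. The part of depth in the Krt8 differences was not tested.

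**Figure D3:**
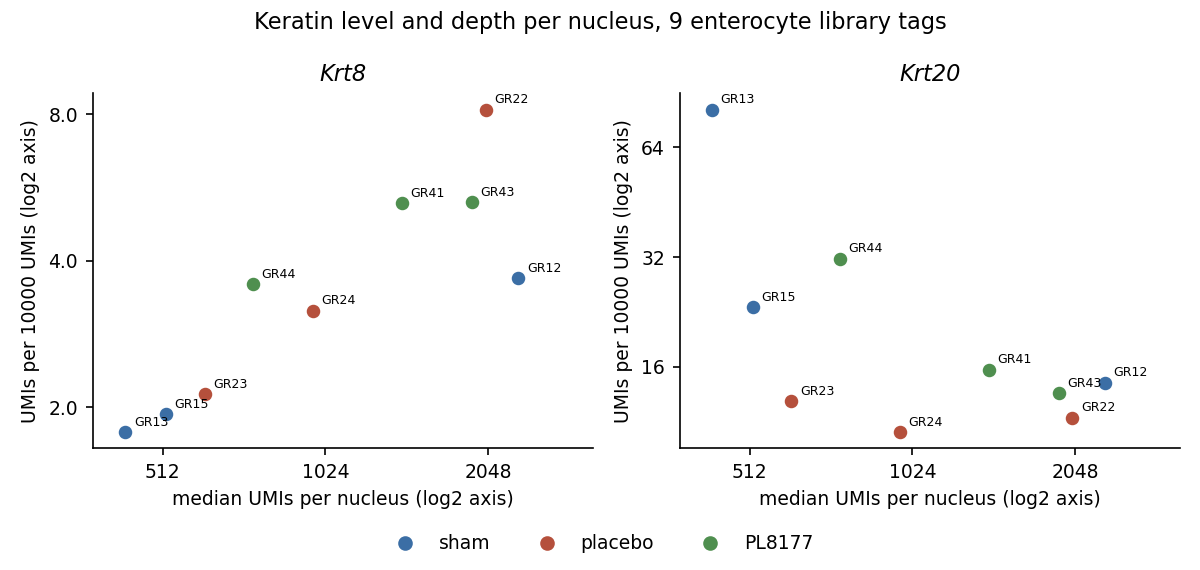
Each point is 1 of the 9 enterocyte tags, with the median UMIs per nucleus on the x axis and the UMIs per 10000 of Krt8 (left) or Krt20 (right) on the y axis, both on log2 axes, coloured by treatment. Krt8 is lowest in the shallow tags GR13 and GR15 and highest in the deep tag GR22, while Krt20 is highest in GR13, whose nuclei hold a median of 437 UMIs.

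The balance of Krt20 to Krt8 UMIs differed between tags. There were 3.93, 45.6 and 12.03 Krt20 UMIs per Krt8 UMI in the sham tags, 1.42, 6.06 and 3.36 in the placebo tags and 2.99, 2.57 and 8.84 in the PL8177 tags. GR13 was far above all other tags, on 3649 Krt20 and 80 Krt8 UMIs, and the 3 groups overlapped. Within each treatment the shallowest tag by median UMI count had the highest quotient.

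Krt19, the type I keratin that lacks the usual tail domain, overlapped between treatments when all enterocyte nuclei were used. Its level per 10000 UMIs was 0.18, 0.20 and 0.36 for the sham tags, 0.26, 0.25 and 0.32 for the placebo tags and 0.37, 0.20 and 0.29 for the PL8177 tags. The lowest tag was in sham and the highest in PL8177, and the placebo tags lay between them. The fitted log2 fold changes in edgeR were -0.12 (SE 0.38), 0.18 (SE 0.35) and 0.29 (SE 0.37) for sham and PL8177 against placebo and PL8177 against sham, with adjusted p from 0.901 to 0.933. The direction of each turned when a single tag was left out (GR12 or GR24, GR41 and GR12). In nuclei with at least 500 genes, every PL8177 tag was above every sham tag for Krt19, with means of 0.27 ± 0.099 and 0.17 ± 0.027 per 10000 (SD, n = 3 each; exact permutation test, p = 0.1, adjusted 0.5).

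Krt18, the classic type I partner of Krt8, was close to the limit of these counts. Its level per 10000 UMIs was 0.15, 0.045 and 0.10 for the sham tags, 0.076, 0.031 and 0.085 for the placebo tags and 0.034, 0.097 and 0.013 for the PL8177 tags, and GR13, GR23 and GR44 held 2, 1 and 1 UMIs. These 3 tags were under the floor of 3 UMIs, which is 0.067, 0.094 and 0.039 per 10000 at their depth, so no order among them is read. The groups overlapped, with edgeR log2 fold changes of 0.72 (SE 0.60, adjusted p = 0.640), -0.22 (SE 0.59, adjusted p = 0.945) and -0.94 (SE 0.59, adjusted p = 0.790) in the order used for Krt19. Single tags moved these values, to 0.18 for the first and -0.40 for the last without GR12, to -2.01 for the last and -1.30 for the second without GR43, and to 0.020 and 0.038 for the second without GR41 or GR44. In nuclei with 500 to 1500 UMIs, Krt18 was at 0.025 to 0.033 per 10000 in the PL8177 tags and 0.071 to 0.13 in the placebo tags. All PL8177 tags and placebo tag GR23 held fewer than 3 Krt18 UMIs there, so no order between the groups is read. Krt7, a type II keratin of ducts and of the bladder, had 9 UMIs in 9 of 8782 nuclei (0.102%, exact interval 0.0469% to 0.194%) and is not compared.

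To set the keratins against position along the crypt, enterocyte nuclei were split within each tag by 9 genes of surface enterocytes (such as Slc26a3, Aqp8 and Car4) and 18 genes of crypt cells (such as Mki67, Lgr5 and Myb), none of them a keratin. Nuclei with more surface than crypt UMIs formed the surface range and the reverse the crypt range. These are ranges of a score and not cell types: the surface range held 59.2% to 91.1% and the crypt range 1.93% to 17.1% of the nuclei of a tag, and in 7.86% to 23.7% of nuclei the sums differed by a single UMI. Crypt-range nuclei were shallower in every tag, with a median of 277 to 1472 UMIs against 452 to 2555.

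Krt20 was higher in the surface range in 9 of 9 tags. Its level in surface-range nuclei was 15.1, 83.0 and 23.2 UMIs per 10000 in the sham tags, 12.2, 15.2 and 11.9 in the placebo tags and 16.3, 14.2 and 32.7 in the PL8177 tags. In crypt-range nuclei it was 4.18, 22.2 and 15.9 for sham, 1.81, 4.88 and 1.35 for placebo and 5.36, 1.84 and 9.49 for PL8177. The smallest gap was in GR15, whose crypt range held 24 nuclei. The mean difference in log2(UMIs per 10000 + 1) was 1.75 ± 0.60 (SD, n = 9 tags; exact two-sided sign-flip permutation test, p = 0.0039, the smallest value 9 tags allow, adjusted over the 5 keratins 0.0195). Within treatments it was 1.34 in sham, 2.05 in placebo and 1.85 in PL8177. After thinning to 300 UMIs the difference was 1.48, with 8 of 9 tags higher in the surface range (adjusted p = 0.0391, exact permutation test). Slc26a3 weighed heavily in the split, at 61.4 to 145 UMIs per 10000 over the tags where the whole surface list was at 93.4 to 190. Without Slc26a3 the difference was 1.19, higher in 8 of 9 tags (adjusted p = 0.0391, exact permutation test), with a sham mean of 0.52.

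The difference appeared as well in the share of nuclei with a Krt20 UMI, which was 60.98% to 90.3% in the surface range and 8.66% to 56.3% in the crypt range. GR24 had the lowest and GR13 the highest share in both ranges. Between treatments, Krt20 overlapped within each range: in surface-range nuclei sham ran from 15.1 to 83.0, placebo from 11.9 to 15.2 and PL8177 from 14.2 to 32.7. The placebo tag GR23, which held the smallest surface share (59.2%), was the one that overlapped there. Surface-range means were 40.4 ± 37.1 in sham, 13.1 ± 1.85 in placebo and 21.1 ± 10.1 in PL8177. Crypt-range means were 14.1 ± 9.13, 2.68 ± 1.92 and 5.57 ± 3.83 in the same order (SD, n = 3 each). Whether treatments differ in Krt20 per nucleus or in the mix of nuclei was not tested.

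**Figure D4:**
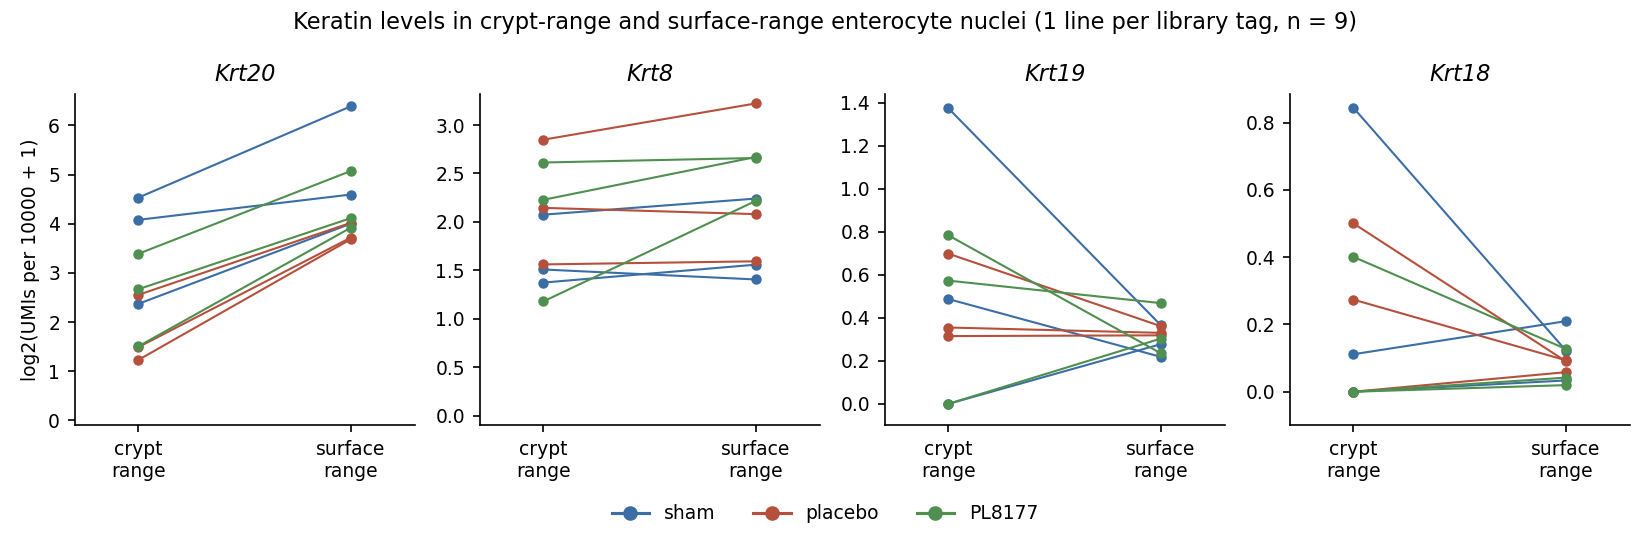
Each line joins the crypt-range and surface-range level of a keratin in 1 of 9 tags, as log2(UMIs per 10000 + 1), coloured by treatment and with its own y scale per panel. All 9 lines of Krt20 rise from the crypt to the surface range, by a mean of 1.75, while the lines of Krt8, Krt19 and Krt18 run in both directions.

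Krt8 was not called between the ranges. It was higher in the surface range in 7 of 9 tags, by a mean of 0.24 ± 0.35 on the log2 scale (exact sign-flip permutation test, p = 0.0508, adjusted 0.127), with 1.65 to 8.34 UMIs per 10000 in surface-range and 1.27 to 6.21 in crypt-range nuclei. The crypt range held 1, 2 and 2 Krt8 UMIs in GR13, GR15 and GR44, under the floor of 3, so no order is read within these tags. Without the 7 cell cycle genes in the crypt list the difference was 0.42, higher in 8 of 9 tags (adjusted p = 0.0293, exact permutation test), and after thinning it was -0.069, higher in 4 of 9. Krt19 and Krt18 had mean differences of -0.19 ± 0.41 and -0.15 ± 0.28, higher in the surface range in 3 and 5 of 9 tags (exact permutation tests, adjusted p = 0.203 and 0.190). For both genes the crypt range held 0 to 9 UMIs per tag.

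Keratins were also looked at together in single nuclei. Of 8782 enterocyte nuclei, 2187 (24.9%) had no UMI of the 5 keratins, 3810 (43.4%) had UMIs of 1, 2507 (28.5%) of 2, 267 (3.04%) of 3, 11 of 4 and 0 of all 5. Nuclei without any ranged from 10.9% in GR13 to 45.4% in GR23. In GR13, 80.3% of nuclei had UMIs of exactly 1 keratin.

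Krt8 and Krt20 were found together in 2627 nuclei. Nuclei with both were 42.8%, 7.74% and 8.05% of the sham tags, 45.4%, 11.5% and 18.3% of the placebo tags and 36.1%, 43.9% and 22.5% of the PL8177 tags. The share with both, divided by the product of the single shares, was 1.01 to 1.39 and above 1 in 9 of 9 tags, lowest in GR13 and highest in GR23. A Krt20 UMI was found in 64.8% to 88.9% of the nuclei with a Krt8 UMI and in 41.1% to 87.8% of those without, with the closest values in GR13. With nuclei thinned to 300 UMIs the quotient was 0.77 to 1.16 and above 1 in 7 of 9 tags, on 270 nuclei with both. Krt8 and Krt19 were found together in 228 nuclei, with a quotient above 1 in 8 of 9 tags, and Krt8 and its partner Krt18 in 95 nuclei, above 1 in 5 of 9. After thinning these pairs were left with 4 and 3 nuclei, too few to compare.

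In T cell nuclei, a cell type not known for keratins, Krt20 and Krt8 were still detected. Without GR23, Krt20 was at 3.32 UMIs per 10000 (exact Poisson interval 2.83 to 3.86) in 333 T cell nuclei, against 16.1 (15.9 to 16.3) in enterocyte nuclei, and Krt8 at 1.37 (1.07 to 1.73) against 5.11 (5.00 to 5.22). The 260 of these nuclei with a T cell marker UMI held Krt20 at 2.39 per 10000, and the 73 without one at 11.3, on 59 of the 167 UMIs. These sums weight each tag by its depth, and no test is given because the cell types were assigned from the same counts. A Krt20 UMI was found in 18.3% of these T cell nuclei (exact interval 14.3% to 22.9%; median depth 753 UMIs) against 66.1% of enterocyte nuclei (median depth 1085), and a Krt8 UMI in 13.5% (10.0% to 17.7%) against 38.0%. The Krt8 shares of enterocyte tags GR13 and GR15, 8.71% and 10.5%, lay under that T cell share, but their nuclei were shallower (median 437 and 520 UMIs) and their Krt8 levels, 1.78 and 1.94 per 10000, lay above the T cell level. In the T cell nuclei of the same tags, Krt8 was found in 0 of 19 and 2 of 27 nuclei.

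Krt18 was sparse in both cell types. Without GR23, T cell nuclei held 15 Krt18 UMIs in 10 nuclei, 0.298 per 10000 (exact Poisson interval 0.167 to 0.491), against 0.0878 (0.0743 to 0.103) in enterocyte nuclei. The share of nuclei with a Krt18 UMI was 3.00% (1.45% to 5.45%) in T cell and 1.57% in enterocyte nuclei, so the enterocyte share was not above that of a cell type not known for keratins, and it lay within the T cell interval. Of the 15 UMIs, 8 came from GR12, at 0.340 per 10000 against 0.15 in its enterocyte nuclei. The T cell nuclei of the other tags held 0 to 2 Krt18 UMIs each, under the floor of 3, so no order is read from them. Goblet cell markers were higher in these T cell nuclei too, at 3.72 to 11.9 UMIs per 10000 (6 of 7 markers counted, all 6 with UMIs) against 1.07 to 3.59 in the enterocyte tags. The lowest value, in GR13, rested on 3 UMIs, the floor at its depth, beside 3.59 in its enterocyte nuclei. In GR12, goblet markers were at 5.11 against 1.47 and genes of the crypt list at 17.3 against 2.98. Genes of the surface list went the other way there, at 4.60 against 132. The part of any of these genes in the Krt18 level was not tested. Krt19, at 0.139 (0.0559 to 0.286) against 0.249 (0.226 to 0.274), and Krt7, on 3 UMIs against 9, had intervals that overlapped or rested on few UMIs.

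**Figure D5:**
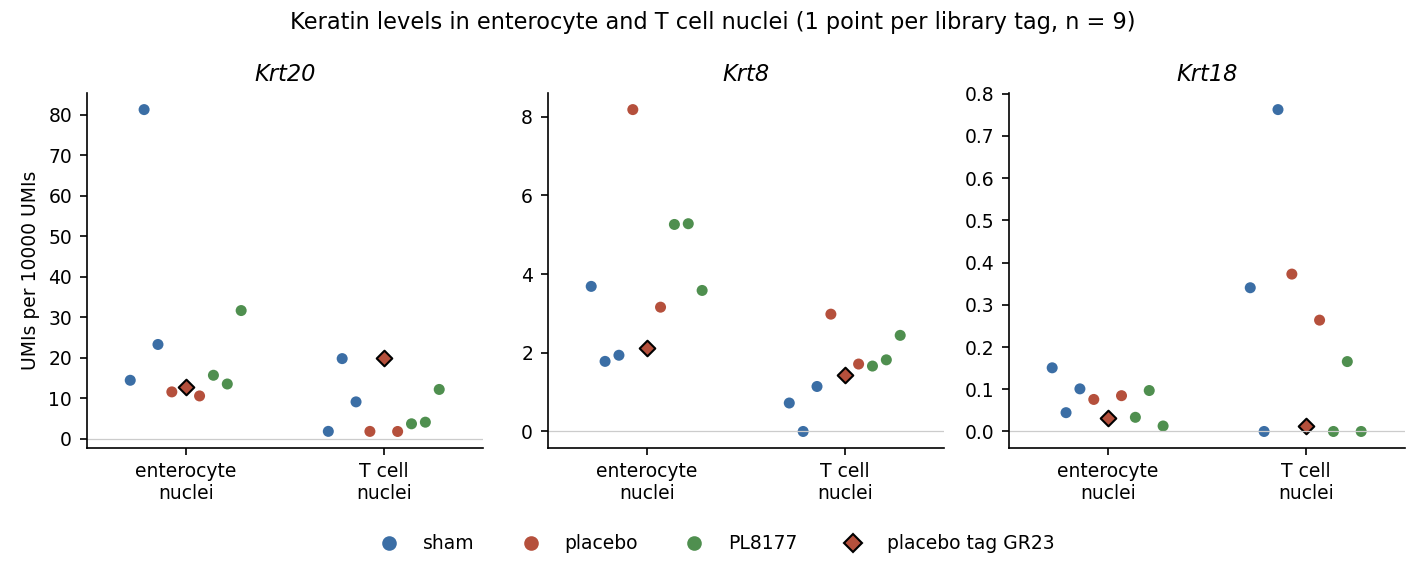
Each point is the UMIs per 10000 of Krt20, Krt8 or Krt18 in the enterocyte or T cell nuclei of 1 of 9 tags, coloured by treatment, with placebo tag GR23 as a diamond. The T cell nuclei of GR23 hold 19.9 Krt20 UMIs per 10000, more than its own enterocyte nuclei at 12.9, while the T cell nuclei of GR12 are the only ones with at least 3 Krt18 UMIs.

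The T cell nuclei of GR23 carried Krt20 at the level of enterocytes. Krt20 was at 19.9 UMIs per 10000 (exact Poisson interval 18.9 to 20.9) and in 67.7% of these nuclei, against 12.9 (11.7 to 14.2) and 46.7% in the enterocyte nuclei of the same tag, while Krt8 was at 1.42 against 2.13. In the other tags, T cell nuclei held 1.87, 19.8 and 9.15 Krt20 UMIs per 10000 among sham tags, 1.86 and 1.85 among placebo tags and 3.74, 4.14 and 12.2 among PL8177 tags. Sham tag GR13, the highest for Krt20 in enterocytes, was also the highest of these, on 16 UMIs in 3 of 19 nuclei. The value of GR15 came from 24 UMIs in 3 of 27 nuclei. Among keratins only Krt20 passed the filter on low counts in T cells, and edgeR called 0 of 1828 genes (0.0%) for sham and 0 of 1828 (0.0%) for PL8177 against placebo, with log2 fold changes of -0.27 (SE 1.01, adjusted p = 0.991) and -0.64 (SE 1.00, adjusted p = 0.999) for Krt20, where the median over all T cell genes was -0.12 in both. At an unadjusted p below 0.05 there were 90 and 18 genes, and DESeq2 called 0 in both. Without GR23 both directions turned, to 1.94 (SE 0.77, adjusted p = 0.997) and 1.74 (SE 0.75, adjusted p = 0.974). The study also lists Krt20 among T cell genes lower in sham and in PL8177 than in placebo. It drew that list from these nuclei, so the direction over all tags is not independent evidence.

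As for all genes, no gene of the lists around keratins was called. Of 12 genes of linkers and desmosomes, which anchor keratin filaments, 9 were tested in enterocytes, and 0 passed edgeR's adjusted p of 0.05 in any comparison, as for all genes (0.0%). At an unadjusted p below 0.05 it was 0 of 9 in each, beside 12.4%, 9.24% and 6.59% of all genes. Over placebo, their median log2 fold change was 0.22 in sham and 0.20 in PL8177, and that of PL8177 over sham was 0.06, beside -0.02, -0.01 and 0.03 over all genes. Evpl, the cross-linker envoplakin, had 0.73 (SE 0.37, adjusted p = 0.435) for sham against placebo, and Jup, the desmosomal plakoglobin, 0.45 (SE 0.28, adjusted p = 0.513). The lowest values were those of the desmosomal cadherin Dsc2, -0.30 (SE 0.24), and the plakophilin Pkp3, -0.04 (SE 0.24).

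Of 14 genes of other intermediate filaments, 6 were tested and 0 passed, with medians of 0.30, -0.32 and -0.41 in the same 3 comparisons. The extremes for sham against placebo were Ina, the neuronal internexin, at 2.60 (SE 1.34, on 18 UMIs), Synm at 1.38 (SE 0.87), the lamin Lmnb1 at -0.16 (SE 0.45) and the muscle filament Des at -0.36 (SE 0.53). At an unadjusted p below 0.05 there were 0, 1 and 1 of these 6, where the shares of all genes were 12.4%, 9.24% and 6.59%. Of the 8 surface and 12 crypt genes tested, 0 passed in any comparison as well, while 1, 2 and 1 surface genes and 2, 3 and 0 crypt genes had an unadjusted p below 0.05, to be read against the same 12.4%, 9.24% and 6.59% of all genes. Among surface genes, the values for sham against placebo ran from -1.004 (SE 0.48) for Tmigd1 and -0.63 (SE 0.30) for the sodium-hydrogen exchanger Slc9a3 to 0.62 (SE 0.46) for the water channel Aqp8 and 0.70 (SE 0.34) for the chloride-bicarbonate exchanger Slc26a3. Among crypt genes they ran from -2.09 (SE 0.69, adjusted p = 0.261) for the replication clamp Pcna and -1.51 (SE 0.41, adjusted p = 0.195) for the transcription factor Myb to 0.96 (SE 0.92) for Ephb3 and 1.07 (SE 0.60) for the topoisomerase Top2a.

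Other keratins were close to absent. Of 13 further keratin genes in the tables, 11 had a UMI in enterocyte nuclei, 162 in all, and only Krt14, a keratin of basal squamous cells, had at least 50. Its 56 UMIs lay in 54 nuclei, with 16 UMIs in GR12 and 19 in GR22, and Krt5, its type II partner, had 15. These counts are too few to compare.

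The genes whose levels ran most like those of the keratins over the 9 enterocyte tags were found among 9424 genes by Pearson correlation of log2(UMIs per 10000 + 1). For Krt20 they were Stard5 (r = 0.99), Gtpbp2 (r = 0.97) and Gramd2b (r = 0.97), each with its highest mean in sham and its lowest in placebo, at 22.2, 10.1 and 12.3 UMIs per 10000 in sham, placebo and PL8177 for Gramd2b. For Krt8 they were Tubb4b, a beta tubulin (r = 0.98), LOC100910656 (r = 0.98) and Rps27a.1 (r = 0.98), all with their lowest mean in sham. For Krt19 the values were 0.88 for Phldb1 and 0.87 for Sema3c, and for Krt18 0.93, 0.92 and 0.92 for Fam189a2, Gpatch8 and Focad, both on sparse keratin counts. The points share depth and library, and the genes were picked as the highest of all, so these are descriptions with n = 9 tags.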

How the data were processed

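Colon nuclei were prepared as 3′ libraries by the authors, who counted UMIs with Cell Ranger 6.0.1, introns included, on Rnor 6.0, applied CellBender and filtered genes (3 or more cells) and nuclei (200 or more genes, mitochondrial reads below 5%). They assigned cell types with Seurat 4.0.3. The 6 deposited tables hold raw UMI counts per gene and nucleus. The placebo T cell table was cut off after 15108 of 17388 genes, with all 5 keratins in the part held, and T cell fits use these genes. CellBender removes background RNA, so low keratin counts depend on it.

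Levels are UMIs per 10000 UMIs of a tag. UMI sums per tag were tested by the quasi-likelihood test of edgeR 4.0.16 (R 4.3.3; TMM, filterByExpr, all 3 treatments fitted together, Benjamini-Hochberg adjustment over all genes). Calls needed an adjusted p of less than 0.05 and a log2 fold change beyond 0.5 in enterocytes or 1.5 in T cells, in either direction. This step and its DESeq2 1.42.0 counterpart were tested on simulated data. Other steps used Python 3.11.15, numpy 2.4.6, scipy 1.17.1, pandas 2.3.3 and matplotlib 3.10.9. No source ties a tag to a rat, so p-values measure the spread between tags. Levels used exact permutation tests over tags, ranges exact sign-flip tests with a pseudocount of 1 per 10000, and shares Clopper-Pearson intervals.

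The keratins, gene lists, marker lists and tests were chosen with earlier results of these data known. Named genes are the 5 keratins, other keratins with at least 50 UMIs, the 2 highest and 2 lowest fitted changes of each list for sham against placebo, and the 3 genes most like each keratin, of which 1 for Krt19 is not reported here; Krt5 was added after its values were seen. Doublets were not called and no nuclei were removed. Alternatives were DESeq2, RLE normalization, no filter on low counts, each tag left out, nuclei with at least 500 genes, nuclei without T cell marker UMIs, T cell nuclei with a marker UMI, thinning to 300 UMIs, a pseudocount of 0.1 and shorter lists; nuclei with 500 to 1500 UMIs, and leaving out tags for the levels by treatment, were added after seeing the data. Other cell types were not analysed here.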

Additional observations from a re-analysis of the deposited data

Results flagged for a closer look

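Krt8 had a log2 difference between surface and crypt range of 1.04 in PL8177 tag GR44, whose gap to the next tag, relative to the range of all 9 tags, was 0.522, above Dixon's 95% critical value. Without GR44 the mean difference was 0.13. The crypt range of GR44 held 26 nuclei with 2 Krt8 UMIs. Krt7 had its highest difference, 0.0665, in sham tag GR13 (gap 0.583), on 2 UMIs in surface-range nuclei. Chance flags about 1 in 20 such groups, and 5 keratins were looked at.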

How the results depend on the processing

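Of 207 alternative values of the fitted keratin changes, 191 kept direction and call, 15 turned and 1, Krt20 for sham against placebo without a filter on low counts (1.91), became a call; no filter also raised the enterocyte calls to 51, 8 and 10 genes for sham against placebo, PL8177 against placebo and PL8177 against sham and the T cell calls to 33 for sham and 4 for PL8177. DESeq2 called 115, 70 and 4 enterocyte genes. For sham against placebo, thinning gave 9 genes and nuclei without T cell marker UMIs 1. With each tag left out, 0 to 8 genes were called for sham against placebo (8 without GR44, 3 without GR12 or GR41) and 0 to 2 for PL8177 against sham (2 without GR23). The cause of these moves was not tested.

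With each tag left out, the fitted changes in enterocytes ran from -1.11 to 0.035 (Krt8, sham against placebo), -0.15 to 0.97 (Krt8, PL8177 against placebo), -1.51 to 0.21 (Krt20, PL8177 against sham; 0.21 without GR13), -1.30 to 0.038 (Krt18, PL8177 against placebo), -0.43 to 0.19, -0.074 to 0.43 and -0.019 to 0.61 (Krt19, sham against placebo, PL8177 against placebo and PL8177 against sham), and in T cells from -1.07 to 1.94 and -1.45 to 1.74 (Krt20, sham and PL8177 against placebo). In nuclei with 500 to 1500 UMIs, Krt19 turned to -0.31 and -0.25 for PL8177 against placebo and against sham.

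Of 144 log2 ratios of mean levels, 16 turned. With each tag left out they ran from -0.27 to 0.83 (Krt8, PL8177 against placebo), -1.46 to 0.028 (Krt18, PL8177 against placebo), -0.55 to 0.035, -0.18 to 0.26 and -0.025 to 0.61 (Krt19, in the order above) and -1.44 to 0.10 (Krt20, PL8177 against sham). Thinned, Krt19 was at 0.11, -0.20 and -0.31. In nuclei with 500 to 1500 UMIs, Krt18 was at -0.20 for sham against placebo and Krt19 at -0.35 and -0.15 for PL8177 against placebo and against sham.

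Between ranges, Krt8 turned to -0.069 after thinning and became a call at 0.42 without cell cycle genes in the crypt list. The other 62 of 64 values kept direction and call, among them Krt20 at 1.19 (surface list without Slc26a3) to 1.99. After thinning, Krt7 had no UMI in either range. No paired analysis was possible because the labels give no replicate numbers and do not say whether last digits that recur in tags of different treatments mark a pairing. Depth limits Krt18, Krt19 and Krt7 most: in a tag of 319125 UMIs, a level under 0.094 per 10000 rests on fewer than 3 UMIs.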

Other observations

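Among the keratins under 50 UMIs, chosen here after their values were seen, some UMIs lay in few tags. All 15 UMIs of Krt32, a hair keratin, were in PL8177 tag GR43, over 10 nuclei with at most 3 in a nucleus. Of the 24 UMIs of Krt12, a cornea keratin, 20 were in placebo tag GR22 and 4 in GR24, over 12 nuclei with at most 6 in a nucleus, and the 15 UMIs of Krt79 were in GR22 and GR43. The authors kept only genes seen in at least 3 cells; whether that was applied per sample, which would set a gene to 0 in some tags, is not given in the sources used here.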
